A study of Homo sapiens with 8 samples.

Results

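Collagen genes were defined as protein-coding rows of the count table whose symbol reads COL, a number, A and a number. This gave 44 genes of 80311 rows, 19778 of which were typed protein-coding. The family was chosen by the measured values of COL3A1, whose log2 fold change after MEPCE knockdown had opposite signs in the 2 cell lines. The values of COL3A1 are therefore given as a description without a test, and counts of changed collagen genes leave it out. The counts come from total RNA of 2 derivatives of U2OS, a human osteosarcoma line, sequenced as 8 libraries in 4 groups of 2. MEPCE encodes the methyltransferase that caps 7SK RNA, and the series title concerns MePCE, R-loops and the repair of broken DNA. AsiSI cells (U2OS AiD-DiVA AsiSI-ER, kept in G418) carry a restriction enzyme that 4-hydroxytamoxifen (4-OHT) brings into action to cut DNA. They received siMePCE or the control siRNA siNC in rounds at 0 and 48 h, then 300 nM 4-OHT for 4 h from 92 h, and were lysed at 96 h. Flp-In cells (U2OS-Flp-In-TREx, kept in Zeocin and Blasticidin) received siMePCE or siNC on the same schedule, and 4-OHT is not stated for them. Line and 4-OHT can therefore not be told apart. No label gives the cultures behind the 2 replicates of a group, so a p-value here reflects only how far these libraries spread, which may be technical.

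Collagens are proteins of the extracellular matrix whose chains wind into a triple helix. Their chains are hydroxylated and glycosylated in the endoplasmic reticulum, folded with the help of dedicated chaperones, secreted, trimmed by proteinases and, for the fibrillar types, assembled into fibrils that lysyl oxidases cross-link. Fibrillar type I collagen is the main protein of bone matrix, the matrix that the osteoblast lineage lays down. Type V and type XI chains start and size fibrils, type VI forms beaded microfilaments, type IV forms the network of basement membranes, and FACIT collagens (fibril-associated collagens with interrupted triple helices) sit on fibril surfaces. Other members form short-chain networks, are basement membrane multiplexins, span the cell membrane, or build anchoring fibrils.

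Sequence upstream of 6 promoters is shown because their genes carry the contrasts described below: a pair transcribed from opposite sides of 1 short stretch (COL4A1 and COL4A2), 1 gene of a head-to-head pair that parted (COL4A5, beside COL4A6), genes that fell (COL5A1, COL6A3), a gene that fell in Flp-In and was not called in AsiSI (COL11A1), and a gene that rose in both lines (COL21A1). Sequences are from RefSeq on GRCh38.p14, whereas the counts carry hg19 coordinates. The COL4A1 and COL4A2 stretch is the whole interval of 126 bases between the 2 listed starts, and each other sequence is the 250 bases before the first listed start, 5′ to 3′ on the strand of the gene. Capitals mark 3 motifs, each searched on both strands, so that its reverse complement is in capitals too: CCAAT, the site that gives the NF-Y factor its other name, then TATAAA, a form of the TATA box, and lastly GGGCGG, the core of the GC box.
COL4A1 and COL4A2, chr13:110307158-110307283, plus strand: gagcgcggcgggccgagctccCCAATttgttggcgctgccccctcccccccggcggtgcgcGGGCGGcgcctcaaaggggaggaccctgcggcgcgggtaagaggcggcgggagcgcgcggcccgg
COL4A5, chrX:108439588-108439837, plus strand: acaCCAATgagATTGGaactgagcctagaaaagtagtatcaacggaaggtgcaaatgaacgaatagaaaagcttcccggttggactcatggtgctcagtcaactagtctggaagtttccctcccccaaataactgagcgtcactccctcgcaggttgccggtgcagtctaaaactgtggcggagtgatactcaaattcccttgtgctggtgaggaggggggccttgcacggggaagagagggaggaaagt
COL5A1, chr9:134641553-134641802, plus strand: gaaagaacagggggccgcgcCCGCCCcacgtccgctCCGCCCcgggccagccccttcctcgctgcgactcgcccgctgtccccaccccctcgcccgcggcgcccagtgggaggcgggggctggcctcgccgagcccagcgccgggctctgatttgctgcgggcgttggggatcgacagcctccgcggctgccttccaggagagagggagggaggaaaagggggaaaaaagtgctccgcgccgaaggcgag
COL6A3, chr2:237414165-237414414, minus strand: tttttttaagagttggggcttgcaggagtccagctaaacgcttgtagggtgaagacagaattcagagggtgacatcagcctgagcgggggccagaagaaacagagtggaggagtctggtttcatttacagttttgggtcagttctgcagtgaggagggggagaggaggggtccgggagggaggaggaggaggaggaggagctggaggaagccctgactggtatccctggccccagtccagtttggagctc
COL11A1, chr1:103108523-103108772, minus strand: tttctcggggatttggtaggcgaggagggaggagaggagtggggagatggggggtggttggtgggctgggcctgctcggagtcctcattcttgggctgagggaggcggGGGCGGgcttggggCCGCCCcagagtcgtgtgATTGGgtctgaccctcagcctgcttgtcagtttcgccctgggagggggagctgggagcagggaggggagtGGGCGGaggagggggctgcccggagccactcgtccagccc
COL21A1, chr6:56247581-56247830, minus strand: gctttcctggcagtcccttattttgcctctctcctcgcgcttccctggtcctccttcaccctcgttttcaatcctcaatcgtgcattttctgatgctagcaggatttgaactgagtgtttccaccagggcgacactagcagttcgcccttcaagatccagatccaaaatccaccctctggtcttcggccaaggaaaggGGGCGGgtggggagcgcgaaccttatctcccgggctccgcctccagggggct
The window of 250 bases was matched by symbol for 32 of the 44 genes. COL1A1, COL1A2, COL2A1, COL3A1, COL5A2, COL6A1, COL6A5, COL8A1, COL9A3, COL14A1, COL20A1 and COL22A1 were not matched. CCAAT was present in 9 of 32 collagen windows and in 33.0% of 27305 promoters of the same length. The TATAAA motif was present in 5 of 32 and in 11.1%, whereas GGGCGG was present in 18 of 32 and in 42.3%. COL6A3 held none of the 3 motifs, COL5A1 held GGGCGG at 2 places, and COL11A1 held GGGCGG at 3 places and CCAAT at 1. A match is a run of letters and not a measured binding site.

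Total counts ran from 41431776 to 53695626 per library. MEPCE was 9.85-fold lower in AsiSI siMePCE (162 and 102 counts, against 1405 and 1542 in AsiSI siNC) and 7.85-fold lower in Flp-In siMePCE (264 and 234 counts, against 1712 and 1676 in Flp-In siNC). Mitochondrial genes held 9.63% and 10.6% of counts in AsiSI siMePCE, 5.89% and 5.91% in AsiSI siNC, 8.66% and 8.24% in Flp-In siMePCE, and 5.23% and 5.52% in Flp-In siNC, and so moved with the knockdown. With mitochondrial, 7SK, 7SL and ribosomal RNA genes removed before scaling, the counts of collagen genes called were the same in every comparison. Levels are given as CPM, counts scaled to library size with TMM factors. Of 9 osteoblast lineage markers, RUNX2, SPP1 and PHEX averaged 36.2, 18.7 and 6.47 CPM over the 8 libraries. The other 6, ALPL, BGLAP, SP7, DMP1, DLX5 and IBSP, were near 0, the highest of them ALPL at 0.687 CPM, so defining markers of the mature osteoblast (BGLAP, IBSP) were almost absent. The summed level of the 9 markers was 65.4 and 78.8 CPM in AsiSI siMePCE, 69.8 and 75.0 in AsiSI siNC, 47.2 and 44.03 in Flp-In siMePCE, and 64.6 and 62.3 in Flp-In siNC. The groups overlapped in AsiSI, and both Flp-In siMePCE libraries were below both Flp-In siNC libraries. The part of this in the collagen values was not tested. Of 11 markers of other cell types, 10 had a row, and CD3E of T cells averaged 0.0369 CPM. Their summed level, most of it the keratin KRT8, was 111 and 98.2 CPM in AsiSI siMePCE, 95.0 and 96.3 in AsiSI siNC, 154 and 136 in Flp-In siMePCE, and 187 and 183 in Flp-In siNC, without overlap in either line. Of the 8 tested, 3 rose and 1 fell in AsiSI and 2 rose and 2 fell in Flp-In. That is 50.0% called in each line, near the share of coding genes called (52.1% in AsiSI and 54.8% in Flp-In). Among those called were CDH1, an epithelial cadherin (1.91-fold higher in AsiSI and 2.18-fold higher in Flp-In), and GFAP of astrocytes (1.98-fold lower in AsiSI and 3.36-fold lower in Flp-In). CDH1 averaged 4.01 CPM beside 113 CPM for KRT8, which is epithelial too. The sum that KRT8 dominates fell in Flp-In, where CDH1 rose. The part of these markers in the collagen values was not tested. In bulk RNA, fewer cells of a kind and less RNA per cell cannot be told apart.

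The summed level of the 44 collagen genes, COL3A1 included, was lower after MEPCE knockdown in both lines. Their summed level was 1006 ± 34.6 CPM in AsiSI siMePCE against 1212 ± 3.12 CPM in AsiSI siNC, and 697 ± 25.7 CPM in Flp-In siMePCE against 1024.5 ± 24.8 CPM in Flp-In siNC (SD, n = 2). The libraries of the knockdown and control groups did not overlap in either line. Abundant genes carry such a sum, and it is not a fall of every gene. Of the 42 tested without COL3A1, 14 fell in AsiSI (median log2 fold change -0.04) and 21 in Flp-In (median -0.20). Per kilobase of listed gene length, introns included, the highest levels over the 8 libraries were those of COL1A1 (4.26 CPM per kb), COL6A1 (2.28), COL6A2 (1.79), COL12A1 (1.72) and COL6A3 (0.485). COL1A2, the usual partner chain of COL1A1 in type I collagen, was at 0.0103 CPM per kb, with a mean of 17.5 counts per library. Its counts were even in all 8 libraries, so fewer RNA fragments may lie behind them. A row on the opposite strand that overlaps COL1A2 had 26.4 times its counts. COL2A1, the cartilage fibril collagen, averaged 11.2 counts, and COL9A3 averaged 8.25 counts and was the 1 gene not tested.

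Among the 42 collagen genes tested other than COL3A1, 10 rose and 14 fell in AsiSI cells, where 16.8% of all genes tested rose and 21.4% fell (38.2% called, edgeR quasi-likelihood test, Benjamini-Hochberg adjusted p under 0.05 over 43321 genes). In Flp-In cells 10 rose and 21 fell, where 18.1% of all genes rose and 22.8% fell (40.9% called). Among protein-coding genes, 17.0% rose and 35.1% fell in AsiSI (52.1% called), and 20.6% rose and 34.3% fell in Flp-In (54.8% called). The share of collagen genes that fell in AsiSI was thus near the background of coding genes. The median log2 fold change of the 42 genes was -0.04 in AsiSI, beside 0.04 for all genes and -0.14 for coding genes. It was -0.20 in Flp-In, beside 0.03 for all genes and -0.10 for coding genes. Of the collagen genes that rose, 7 did so in both lines, which is 7 of 10 in each. Among coding genes that rose, 2057 did so in both lines, 69.8% of those in AsiSI and 57.6% of those in Flp-In. Of the collagen genes that fell, 12 did so in both, which is 12 of 14 in AsiSI (85.7%) and 12 of 21 in Flp-In (57.1%). Coding genes that fell in both lines numbered 4661, which was 76.5% of those in AsiSI and 78.5% of those in Flp-In. COL7A1 rose in AsiSI and fell in Flp-In. Calls that held without any 1 library numbered 7 of 10 higher and 11 of 14 lower in AsiSI, and 5 of 10 higher and 12 of 21 lower in Flp-In. The count of higher genes in Flp-In was 6 without Flp-In siMePCE replicate 2. Of the 44 genes, 18 were overlapped by another gene with at least 0.1 of their counts. Without these, and without COL3A1, 26 genes were tested, of which 7 rose and 8 fell in AsiSI, and 8 rose and 12 fell in Flp-In.

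**Figure D1:**
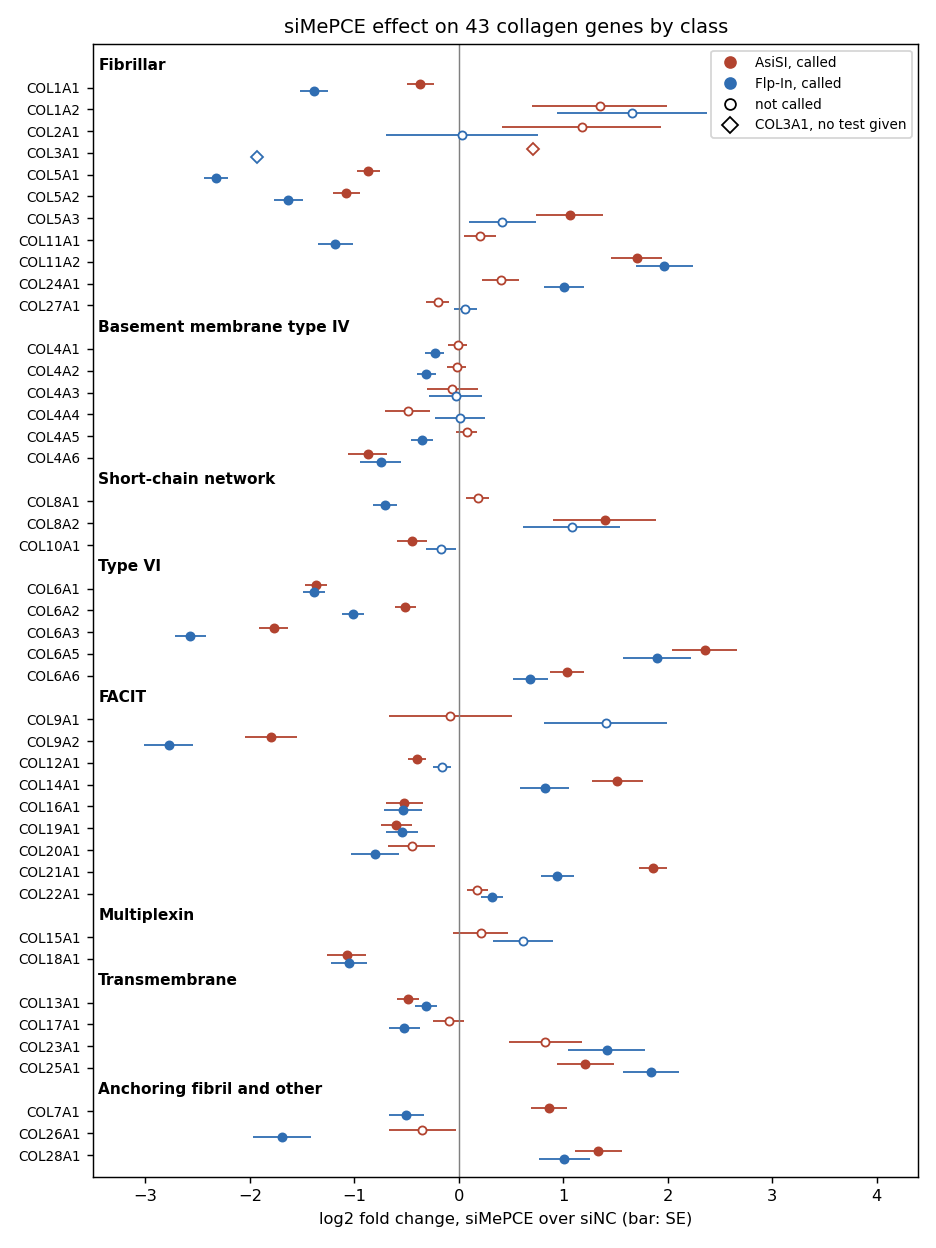
Log2 fold changes of siMePCE over siNC (x axis) for 43 collagen genes in rows by class, with AsiSI in red above Flp-In in blue, bars for the SE and filled points for adjusted p under 0.05. COL3A1, whose values chose the family, is shown as open diamonds with no error or call, at 0.71 in AsiSI and -1.93 in Flp-In. The bottom of the scale is held by COL9A2 and COL6A3, and the top by COL6A5.

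COL3A1, the chain of type III collagen in vessels, skin and other soft tissue, lies on chromosome 2, 189839099 to 189877472, plus strand (hg19). It had 436 and 446 counts in AsiSI siMePCE, 310 and 298 in AsiSI siNC, 80 and 112 in Flp-In siMePCE, and 326 and 309 in Flp-In siNC. At 9.82 and 10.0 CPM, the AsiSI siMePCE libraries were above both AsiSI siNC libraries at 6.46 and 5.67 CPM, and at 1.62 and 2.32 CPM the Flp-In siMePCE libraries were below both Flp-In siNC libraries at 7.60 and 7.39 CPM. The log2 fold change was 0.71 in AsiSI and -1.93 in Flp-In, a difference of 2.64, and these are the values that chose the gene. Under siNC its log2 difference between AsiSI and Flp-In was -0.31. A row without a symbol on the opposite strand covers 27.4% of the length of COL3A1 with 0.192 times its counts. That row had log2 fold changes of 1.61 in AsiSI and -0.59 in Flp-In, and reads from the overlap could belong to either row.

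Among the other fibrillar collagens, the abundant type I and type V chains fell in both lines. Of 10 genes tested, COL11A2 and COL5A3 rose and COL1A1, COL5A1 and COL5A2 fell in AsiSI, and COL11A2 and COL24A1 rose and COL1A1, COL5A1, COL5A2 and COL11A1 fell in Flp-In. COL1A1, the major chain of type I collagen (chromosome 17, 48261462 to 48278993, minus strand), was at 97.4 and 74.8 CPM in AsiSI siMePCE, 109 and 113 in AsiSI siNC, 32.8 and 23.5 in Flp-In siMePCE, and 71.2 and 76.0 in Flp-In siNC. Its knockdown libraries were below the controls in both lines, by a wide margin in Flp-In and a narrow one in AsiSI. In AsiSI COL1A1 was 1.29-fold lower (edgeR adjusted p = 0.0286, SE 0.128, where SE values are of the log2 fold change) and in Flp-In 2.62-fold lower (adjusted p = 5.84e-08, SE 0.133). The AsiSI call was lost without AsiSI siMePCE replicate 2 (log2 fold change -0.19, edgeR adjusted p = 0.311), AsiSI siNC replicate 1 (0.0834) or AsiSI siNC replicate 2 (0.137), and with a filter of 1 CPM (0.0600). Its log2 value was -0.58 without AsiSI siMePCE replicate 1. An overlapping noncoding gene had 0.114 times its counts.

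COL5A1 (chromosome 9, 137533649 to 137736689, plus strand), the type V chain that starts type I fibrils, was at 22.4 and 22.2 CPM in AsiSI siMePCE, 40.5 and 40.6 in AsiSI siNC, 11.4 and 10.3 in Flp-In siMePCE, and 50.7 and 57.9 in Flp-In siNC. Both knockdown groups were clear of their controls, and Flp-In siMePCE was the lowest group. COL5A1 was 1.82-fold lower in AsiSI (SE 0.108, edgeR adjusted p = 9.91e-07) and in Flp-In 5.004-fold lower (SE 0.114, adjusted p = 6.87e-13). COL5A2, its partner chain (chromosome 2, 189896624 to 190090038, minus strand), was at 17.2 and 19.6 CPM in AsiSI siMePCE, 43.1 and 34.5 in AsiSI siNC, 7.36 and 8.27 in Flp-In siMePCE, and 25.6 and 22.9 in Flp-In siNC. The order of the 4 groups differed from that of COL5A1 only in the controls, where AsiSI siNC was the higher. COL5A2 was 2.11-fold lower in AsiSI (SE 0.129, edgeR adjusted p = 5.76e-07) and in Flp-In 3.10-fold lower (SE 0.137, adjusted p = 2.60e-09). COL5A3, the third type V chain, lay low, at 2.43 and 1.94 CPM in AsiSI siMePCE, 0.750 and 1.33 in AsiSI siNC, 1.95 and 1.53 in Flp-In siMePCE, and 1.17 and 1.44 in Flp-In siNC. It rose 2.09-fold in AsiSI (SE 0.320, edgeR adjusted p = 0.0113), a call lost without AsiSI siMePCE replicate 1 (0.0827) or AsiSI siNC replicate 1 (log2 0.70, 0.176), and an overlapping row had 0.576 times its counts.

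The 2 type XI chains, which size the fibrils of cartilage, went different ways. COL11A1 (chromosome 1, 103342023 to 103574428, minus strand) was at 21.1 and 24.6 CPM in AsiSI siMePCE, 23.8 and 15.99 in AsiSI siNC, 6.22 and 5.89 in Flp-In siMePCE, and 14.3 and 13.2 in Flp-In siNC. The AsiSI groups overlapped, and the Flp-In knockdown libraries were below their controls. COL11A1 was 2.27-fold lower in Flp-In (SE 0.166, edgeR adjusted p = 4.74e-06) and had a log2 fold change of 0.20 in AsiSI (SE 0.153, adjusted p = 0.330), which was 0.50 (adjusted p = 0.0212) without AsiSI siNC replicate 1 and -0.06 without AsiSI siNC replicate 2. COL11A2 (chromosome 6, 33130458 to 33160276, minus strand) was at 5.65 and 4.71 CPM in AsiSI siMePCE, 1.58 and 1.597 in AsiSI siNC, 3.79 and 2.79 in Flp-In siMePCE, and 0.723 and 0.957 in Flp-In siNC. Every knockdown library exceeded every control library. COL11A2 rose 3.25-fold in AsiSI (SE 0.246, edgeR adjusted p = 7.47e-06) and 3.91-fold in Flp-In (SE 0.272, adjusted p = 3.86e-06). COL24A1, a minor fibrillar chain, was at 10.6 and 11.9 CPM in AsiSI siMePCE, 9.58 and 7.47 in AsiSI siNC, 6.39 and 7.57 in Flp-In siMePCE, and 2.98 and 3.97 in Flp-In siNC. Its groups did not overlap in either line, and it rose 2.01-fold in Flp-In (SE 0.191, edgeR adjusted p = 0.000183), whereas the log2 fold change of 0.40 in AsiSI was not called (adjusted p = 0.0760). It was called in AsiSI without AsiSI siNC replicate 1 (edgeR adjusted p = 0.0430) and with the filter of 1 CPM (0.0293). COL27A1, at 45.0 to 62.3 CPM in all libraries, was called in neither line, and nor were COL1A2 and COL2A1.

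**Figure D2:**
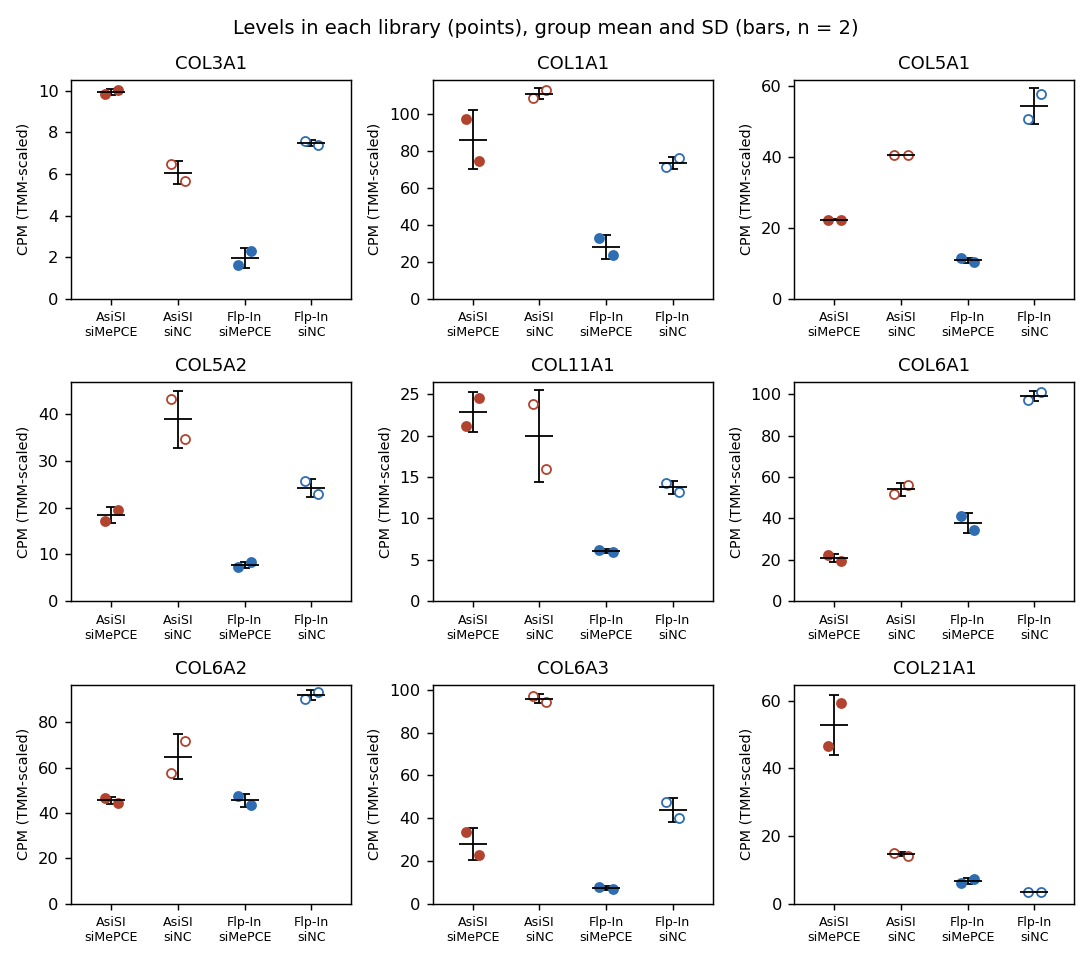
TMM-scaled CPM (y axis) of 9 collagen genes in each library (points), with the group mean and SD of 2 libraries as bars, and groups from left to right AsiSI siMePCE, AsiSI siNC, Flp-In siMePCE and Flp-In siNC. COL3A1 was highest in AsiSI siMePCE at 9.82 and 10.0 CPM and lowest in Flp-In siMePCE at 1.62 and 2.32 CPM, whereas COL6A1 fell about equally in both lines.

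All 5 type VI genes tested passed the test in both lines, the 3 classical chains lower and the 2 alternative chains higher. COL6A3 (chromosome 2, 238232646 to 238322971, minus strand), the large chain of the microfilament, was at 33.4 and 22.8 CPM in AsiSI siMePCE, 97.3 and 94.6 in AsiSI siNC, 7.91 and 6.80 in Flp-In siMePCE, and 47.6 and 39.9 in Flp-In siNC. Knockdown and control libraries stood far apart in both lines. COL6A3 was 3.42-fold lower in AsiSI (SE 0.136, edgeR adjusted p = 1.03e-09) and in Flp-In 5.95-fold lower (SE 0.148, adjusted p = 1.40e-11). COL6A1 (chromosome 21, 47401684 to 47424964, plus strand) was at 22.2 and 19.6 CPM in AsiSI siMePCE, 51.9 and 56.2 in AsiSI siNC, 41.3 and 34.6 in Flp-In siMePCE, and 97.3 and 101 in Flp-In siNC. Its fall was of similar size in both lines, 2.58-fold in AsiSI (SE 0.106, edgeR adjusted p = 8.70e-10) and 2.61-fold in Flp-In (SE 0.104, adjusted p = 5.01e-10). COL6A2, the next gene downstream (chromosome 21, 47518026 to 47552762, plus strand), was at 46.7 and 44.5 CPM in AsiSI siMePCE, 57.9 and 72.0 in AsiSI siNC, 47.6 and 43.6 in Flp-In siMePCE, and 90.5 and 93.5 in Flp-In siNC. The 2 knockdown groups were at nearly the same level and the controls were not. COL6A2 was 1.43-fold lower in AsiSI (SE 0.102, edgeR adjusted p = 0.000341) and in Flp-In 2.02-fold lower (SE 0.103, adjusted p = 4.80e-08).

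COL6A5 and COL6A6 encode alternative chains that can stand in for the COL6A3 chain. COL6A5 was at 3.54 and 4.26 CPM in AsiSI siMePCE, 0.563 and 0.951 in AsiSI siNC, 2.23 and 2.73 in Flp-In siMePCE, and 0.513 and 0.814 in Flp-In siNC, so every knockdown library exceeded every control. It rose 5.11-fold in AsiSI (SE 0.309, edgeR adjusted p = 2.03e-06) and 3.73-fold in Flp-In (SE 0.324, adjusted p = 5.41e-05). COL6A6 was at 11.9 and 13.1 CPM in AsiSI siMePCE, 6.38 and 5.82 in AsiSI siNC, 8.94 and 12.4 in Flp-In siMePCE, and 6.55 and 6.70 in Flp-In siNC, again without overlap. It rose 2.05-fold in AsiSI (SE 0.167, edgeR adjusted p = 2.99e-05) and 1.61-fold in Flp-In (SE 0.168, adjusted p = 0.00223), where the call was lost without Flp-In siMePCE replicate 2 (log2 0.43, adjusted p = 0.0993). Per kilobase of listed length, COL6A5 (0.0140 CPM per kb) and COL6A6 (0.0561 CPM per kb) were below COL6A3 (0.485 CPM per kb) on average over the 8 libraries. In Flp-In siMePCE the mean level of COL6A6 was 0.0666 CPM per kb beside 0.0814 for COL6A3, and in AsiSI siMePCE it was 0.0782 beside 0.311. Without division by length, COL6A6 in Flp-In siMePCE (8.94 and 12.4 CPM) was above COL6A3 (7.91 and 6.80 CPM). The order there thus depends on the listed lengths, which include introns.

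FACIT collagens moved both ways. Of 9 tested, COL14A1 and COL21A1 rose and COL9A2, COL12A1, COL16A1 and COL19A1 fell in AsiSI, and COL14A1, COL21A1 and COL22A1 rose and COL9A2, COL16A1, COL19A1 and COL20A1 fell in Flp-In. COL9A2, a chain of the type IX collagen of cartilage fibrils (chromosome 1, 40766161 to 40783485, minus strand), was at 0.811 and 0.811 CPM in AsiSI siMePCE, 2.90 and 2.76 in AsiSI siNC, 1.22 and 1.14 in Flp-In siMePCE, and 8.998 and 7.16 in Flp-In siNC. All knockdown libraries were below all controls, and COL9A2 was 3.48-fold lower in AsiSI (SE 0.252, edgeR adjusted p = 4.83e-06) and in Flp-In 6.85-fold lower (SE 0.233, adjusted p = 2.69e-09). COL21A1 (chromosome 6, 55921388 to 56258892, minus strand) was at 46.5 and 59.2 CPM in AsiSI siMePCE, 15.0 and 14.1 in AsiSI siNC, 6.04 and 7.32 in Flp-In siMePCE, and 3.54 and 3.40 in Flp-In siNC. The 4 groups did not overlap, and the AsiSI groups were above the Flp-In groups. COL21A1 rose 3.63-fold in AsiSI (SE 0.136, edgeR adjusted p = 3.24e-10) and 1.92-fold in Flp-In (SE 0.159, adjusted p = 4.67e-05).

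COL12A1, which coats type I fibrils and had the most counts of the family, was at 231 and 215 CPM in AsiSI siMePCE, 310 and 276 in AsiSI siNC, 164 and 141 in Flp-In siMePCE, and 167 and 173 in Flp-In siNC. It was 1.32-fold lower in AsiSI (SE 0.0880, edgeR adjusted p = 0.000930). In Flp-In its log2 fold change was -0.16 (SE 0.0883, edgeR adjusted p = 0.158), and -0.29 (adjusted p = 0.0367) without Flp-In siMePCE replicate 1. COL14A1, another fibril coat collagen, was at 4.80 and 7.16 CPM in AsiSI siMePCE, 2.10 and 2.07 in AsiSI siNC, 4.74 and 6.76 in Flp-In siMePCE, and 2.73 and 3.78 in Flp-In siNC. It rose 2.86-fold in AsiSI (SE 0.243, edgeR adjusted p = 2.74e-05) and 1.77-fold in Flp-In (SE 0.237, adjusted p = 0.00762), where the call was lost without Flp-In siMePCE replicate 2 (log2 0.54, adjusted p = 0.155) or Flp-In siNC replicate 1 (0.139). COL19A1 fell by 0.60 on the log2 scale in AsiSI (edgeR adjusted p = 0.00274) and by 0.54 in Flp-In (adjusted p = 0.00646), where the call was lost without Flp-In siMePCE replicate 1 (0.0661) or Flp-In siNC replicate 2 (0.0908). LMBRD1, which overlaps COL19A1 by 0.681 kb, had 3.50 times the counts of COL19A1. COL16A1 fell by 0.52 in AsiSI (edgeR adjusted p = 0.0254), lost without AsiSI siMePCE replicate 2 (0.177) or AsiSI siNC replicate 1 (log2 -0.26, 0.408). In Flp-In COL16A1 fell by 0.53 (edgeR adjusted p = 0.0225), lost without either Flp-In siMePCE replicate (0.0800 and 0.0805) or without Flp-In siNC replicate 1 (0.162). COL20A1 fell by 0.80 on the log2 scale in Flp-In (edgeR adjusted p = 0.00751), lost without Flp-In siMePCE replicate 2 (0.0585). COL22A1, found at tissue junctions, rose by 0.32 in Flp-In (edgeR adjusted p = 0.0172), and leaving out each Flp-In library in turn ended the call (0.0515 to 0.1697). It was called in AsiSI with the filter of 1 CPM (log2 0.26, adjusted p = 0.0322) but not otherwise (log2 0.18, adjusted p = 0.183). COL9A1 was called in neither line.

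Of the 6 type IV genes of basement membranes, COL4A6 fell in AsiSI, and COL4A1, COL4A2, COL4A5 and COL4A6 fell in Flp-In. COL4A1 was at 58.2 and 57.0 CPM in AsiSI siMePCE, 57.5 and 58.3 in AsiSI siNC, 41.96 and 43.4 in Flp-In siMePCE, and 49.1 and 51.0 in Flp-In siNC. COL4A2, which makes up the common type IV network with COL4A1, was at 103 and 96.0 CPM in AsiSI siMePCE, 94.6 and 108 in AsiSI siNC, 81.5 and 84.7 in Flp-In siMePCE, and 96.2 and 110 in Flp-In siNC. The AsiSI groups overlapped for both genes, and the Flp-In knockdown libraries were below their controls. Log2 fold changes were -0.01 for COL4A1 and -0.02 for COL4A2 in AsiSI (edgeR adjusted p = 0.956 and 0.889), and -0.23 and -0.31 in Flp-In (adjusted p = 0.0489 and 0.00976). The Flp-In call of COL4A1 was lost with DESeq2 size factors (edgeR adjusted p = 0.0626), no filter (0.0633), the filter of 1 CPM (log2 -0.15, 0.137), DESeq2 (0.0538), and on leaving out each Flp-In library in turn (0.111 to 0.220). That of COL4A2 was lost without Flp-In siMePCE replicate 1 (edgeR adjusted p = 0.0585) or Flp-In siNC replicate 2 (0.173). The 2 genes overlap head to head by 1391 bases in the hg19 rows, and reads from the overlap could belong to either gene. COL4A5 and COL4A6, the minor type IV pair on the X chromosome, parted in AsiSI. COL4A6 was at 3.65 and 4.26 CPM in AsiSI siMePCE, 7.17 and 7.30 in AsiSI siNC, 2.59 and 2.34 in Flp-In siMePCE, and 4.15 and 4.14 in Flp-In siNC. It fell by 0.87 on the log2 scale in AsiSI (SE 0.189, edgeR adjusted p = 0.000757) and by 0.75 in Flp-In (SE 0.200, adjusted p = 0.00442). COL4A5 was at 28.4 and 27.7 CPM in AsiSI siMePCE, 26.3 and 27.0 in AsiSI siNC, 29.4 and 29.4 in Flp-In siMePCE, and 36.2 and 38.9 in Flp-In siNC. It had a log2 fold change of 0.07 in AsiSI (edgeR adjusted p = 0.611) and fell by 0.35 in Flp-In (adjusted p = 0.00856, and 0.0999 without Flp-In siNC replicate 2). COL4A3 and COL4A4, the pair of the kidney and lung network, were called in neither line. COL4A4 had a log2 fold change of -0.49 in AsiSI (edgeR adjusted p = 0.0789), and -0.74 without AsiSI siNC replicate 2 (adjusted p = 0.0237).

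Of the 3 short-chain network genes, COL8A1 (chromosome 3, 99357319 to 99518070, plus strand), a type VIII chain of vessel walls and corneal membrane, was at 51.3 and 45.8 CPM in AsiSI siMePCE, 42.6 and 43.1 in AsiSI siNC, 12.5 and 11.9 in Flp-In siMePCE, and 21.1 and 18.8 in Flp-In siNC. It was 1.63-fold lower in Flp-In (SE 0.113, edgeR adjusted p = 2.53e-05) and had a log2 fold change of 0.18 in AsiSI (SE 0.106, adjusted p = 0.194), which was 0.26 (adjusted p = 0.0349) with the filter of 1 CPM. A row on the opposite strand, overlapping 76.5% of COL8A1, had 0.791 times its counts and log2 fold changes of 0.37 in AsiSI and -0.63 in Flp-In. COL8A2, the other type VIII chain, was at 0.676 and 0.856 CPM in AsiSI siMePCE and 0.333 and 0.247 in AsiSI siNC, and rose by 1.40 on the log2 scale there (edgeR adjusted p = 0.0286). That call was lost without AsiSI siMePCE replicate 2 (edgeR adjusted p = 0.130), AsiSI siNC replicate 1 (0.0625) or AsiSI siNC replicate 2 (0.154). COL8A2 had a log2 fold change of 1.08 in Flp-In (edgeR adjusted p = 0.0679), called without Flp-In siNC replicate 1 (log2 1.81, 0.0331) and in a fit of the 4 Flp-In libraries alone (0.0436). COL10A1, known from hypertrophic cartilage, fell by 0.45 in AsiSI (edgeR adjusted p = 0.0155), lost without AsiSI siMePCE replicate 1 (0.101) or AsiSI siNC replicate 2 (0.0678). COL10A1 lies wholly within NT5DC1, which had 3.50 times its counts and log2 fold changes of -0.51 in AsiSI and -0.36 in Flp-In.

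Among the multiplexins, COL18A1, the source of the angiogenesis inhibitor endostatin, was at 2.19 and 2.14 CPM in AsiSI siMePCE, 4.31 and 4.79 in AsiSI siNC, 6.77 and 5.65 in Flp-In siMePCE, and 13.6 and 12.1 in Flp-In siNC. It fell by a like amount in both lines, 2.11-fold in AsiSI (SE 0.190, edgeR adjusted p = 8.95e-05) and 2.07-fold in Flp-In (SE 0.169, adjusted p = 2.74e-05). SLC19A1, which overlaps 18.6% of COL18A1 with 4.23 times its counts, had log2 fold changes of -1.12 in AsiSI and -0.87 in Flp-In. COL15A1 was called in neither line, with a log2 fold change of 0.61 in Flp-In (edgeR adjusted p = 0.0927, and 0.0483 with the filter of 1 CPM). Of the membrane-spanning collagens, COL25A1, a neuronal collagen found in amyloid plaques, was at 2.95 and 5.49 CPM in AsiSI siMePCE, 1.54 and 2.09 in AsiSI siNC, 5.70 and 7.61 in Flp-In siMePCE, and 1.84 and 1.87 in Flp-In siNC. It rose 2.32-fold in AsiSI (SE 0.269, edgeR adjusted p = 0.000959), lost without AsiSI siMePCE replicate 2 (log2 0.69, adjusted p = 0.0724), and 3.58-fold in Flp-In (SE 0.269, adjusted p = 8.04e-06). COL23A1 rose by 1.42 on the log2 scale in Flp-In (edgeR adjusted p = 0.00377), lost without Flp-In siNC replicate 1 (0.0643). In AsiSI its log2 fold change was 0.83 (edgeR adjusted p = 0.0663), called without AsiSI siMePCE replicate 1 (0.0255) or AsiSI siNC replicate 2 (log2 1.28, 0.0308) and with the filter of 1 CPM (0.0440). COL13A1, a collagen of muscle and nerve junctions, fell by 0.49 in AsiSI (edgeR adjusted p = 0.000875) and by 0.31 in Flp-In (adjusted p = 0.0235). The Flp-In call of COL13A1 was lost without Flp-In siMePCE replicate 2 (edgeR adjusted p = 0.175) or either Flp-In siNC replicate (0.138 and 0.0590), and with the filter of 1 CPM (0.0535). COL17A1, a protein of hemidesmosomes, fell by 0.52 in Flp-In (edgeR adjusted p = 0.00795), lost without Flp-In siMePCE replicate 2 (0.0797) or Flp-In siNC replicate 2 (0.0548).

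COL7A1, which builds the anchoring fibrils under epithelia (chromosome 3, 48601506 to 48632762, minus strand), was the 1 tested collagen gene called in opposite directions. It was at 9.01 and 7.79 CPM in AsiSI siMePCE, 4.52 and 4.72 in AsiSI siNC, 7.72 and 6.76 in Flp-In siMePCE, and 9.14 and 11.4 in Flp-In siNC. The lowest group was AsiSI siNC, and knockdown and control libraries did not overlap in either line. COL7A1 rose 1.82-fold in AsiSI (SE 0.172, edgeR adjusted p = 0.000330) and was 1.42-fold lower in Flp-In (SE 0.167, adjusted p = 0.0187). The Flp-In call was lost without Flp-In siMePCE replicate 2 (edgeR adjusted p = 0.146) or Flp-In siNC replicate 2 (0.244). COL26A1 was at 0.901 and 0.766 CPM in AsiSI siMePCE, 1.38 and 0.760 in AsiSI siNC, 1.56 and 1.49 in Flp-In siMePCE, and 4.71 and 5.15 in Flp-In siNC. It was 3.23-fold lower in Flp-In (SE 0.277, edgeR adjusted p = 3.39e-05), and its log2 fold change of -0.35 in AsiSI was not called (adjusted p = 0.418). COL28A1, found around nerves, was at 7.28 and 9.80 CPM in AsiSI siMePCE, 3.38 and 3.38 in AsiSI siNC, 2.49 and 3.85 in Flp-In siMePCE, and 1.68 and 1.46 in Flp-In siNC. It rose 2.52-fold in AsiSI (SE 0.222, edgeR adjusted p = 4.20e-05) and 2.02-fold in Flp-In (SE 0.248, adjusted p = 0.00223), where the call was lost without Flp-In siMePCE replicate 2 (log2 0.66, adjusted p = 0.0804).

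The direction of change followed the level of the genes. The 42 genes were split at 0.0702 CPM per kb, the median of the family over all 8 libraries. Of the 21 genes above it, 2 rose and 11 fell in AsiSI (9.52% and 52.4%) and 2 rose and 16 fell in Flp-In (9.52% and 76.2%). Of the 21 below it, 8 rose and 3 fell in AsiSI (38.1% and 14.3%) and 8 rose and 5 fell in Flp-In (38.1% and 23.8%). The same split of all protein-coding genes tested gave 14.8% higher and 42.9% lower above it and 24.7% higher and 6.87% lower below it in AsiSI. In Flp-In, coding genes had 20.03% higher and 40.2% lower above it and 22.6% higher and 12.7% lower below it. As a description across genes, Spearman's rho between level and log2 fold change was -0.50 in AsiSI and -0.57 in Flp-In over 42 collagen genes, and -0.33 in AsiSI and -0.17 in Flp-In over 17341 coding genes. For the listed length, rho was 0.14 in AsiSI and 0.16 in Flp-In over the collagen genes and 0.22 in both lines over the coding genes. Genes of 1 sample share its depth and scaling and are not independent replicates.

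**Figure D3:**
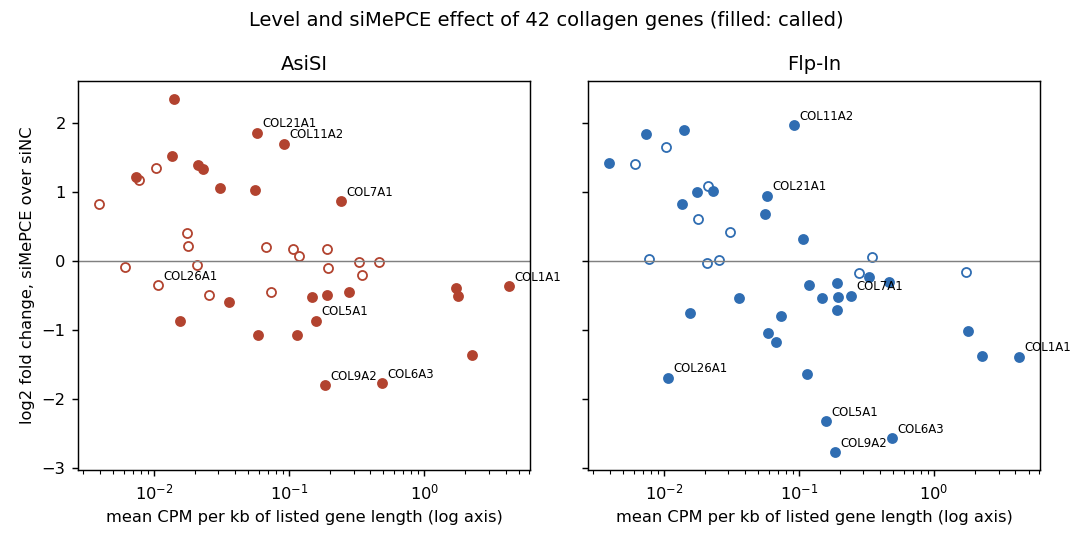
Mean level over 8 libraries in CPM per kb of listed length (x axis, log scale) against the log2 fold change of siMePCE over siNC (y axis) for 42 collagen genes in AsiSI (left) and Flp-In (right), with filled points for called genes. Most genes on the right side of each panel lie below 0, such as COL1A1 at 4.26 CPM per kb, and COL7A1 is above 0 in AsiSI and below it in Flp-In.

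The knockdown effect differed between the lines for 8 of 42 collagen genes, each with the higher log2 fold change in AsiSI. COL3A1, whose values chose the family, differed in that direction too. Leaving it out may therefore not free these counts and their median of that choice. Of all genes tested, 4.41% were called in this contrast, 2.6% higher and 1.81% lower, and of coding genes 6.61%, 3.2% higher and 3.41% lower. No collagen gene was called with the lower effect in AsiSI by edgeR (0 of 42) or by DESeq2 (0). COL24A1 was among those that went that way without a call, with a log2 difference of -0.60 (edgeR adjusted p = 0.214). The median difference of the 42 genes was 0.30, beside -0.02 for all genes and -0.06 for coding genes. COL5A1 had the smallest adjusted p, with a log2 difference of 1.46 (SE 0.154, edgeR adjusted p = 7.62e-06): it fell in both lines and fell further in Flp-In. COL1A1 differed in the same way by 1.02 (SE 0.183, edgeR adjusted p = 0.00238). For COL11A1 the difference was 1.38 (SE 0.226, edgeR adjusted p = 0.000761), for COL8A1 0.89 (SE 0.155, adjusted p = 0.00138) and for COL7A1 1.37 (SE 0.240, adjusted p = 0.00140). These 5 calls held without any 1 library. COL6A3 differed by 0.80 (SE 0.197, edgeR adjusted p = 0.0204), a call lost without AsiSI siMePCE replicate 1 (log2 0.49, 0.112), AsiSI siNC replicate 2 (0.0663), Flp-In siMePCE replicate 2 (0.120) or Flp-In siNC replicate 1 (0.135). COL21A1 differed by 0.92 (SE 0.208, edgeR adjusted p = 0.0122), lost without AsiSI siMePCE replicate 2 (0.0624), Flp-In siMePCE replicate 1 (0.0706) or Flp-In siNC replicate 1 (0.0692). COL6A2 differed by 0.50 (SE 0.144, edgeR adjusted p = 0.0497), lost without any 1 library other than AsiSI siNC replicate 2 (0.0611 to 0.199). Without Flp-In siNC replicate 1, 5 genes were called. COL26A1 had a log2 difference of 1.34 (edgeR adjusted p = 0.0764), called without AsiSI siNC replicate 1 (1.82, 0.0206), and COL5A2 one of 0.55 (adjusted p = 0.0996), called without that library too (0.72, 0.0347). COL4A5 had a log2 difference of 0.43 (edgeR adjusted p = 0.107), and DESeq2 called it (0.44, DESeq2 adjusted p = 0.0327). COL6A1, by contrast, had a difference of 0.01 (SE 0.147, edgeR adjusted p = 0.977), and COL18A1 one of -0.02 (SE 0.248, adjusted p = 0.977).

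Under siNC the lines already differed in their collagen genes, for 23 of 42 tested besides COL3A1, with 15 higher and 8 lower in AsiSI. Of all genes 29.6% were called (14.4% higher and 15.2% lower), and of coding genes 41.4% (17.9% higher and 23.5% lower). COL21A1 had the largest rise, at 15.0 and 14.1 CPM in AsiSI siNC against 3.54 and 3.40 in Flp-In siNC (4.195-fold, SE 0.154, edgeR adjusted p = 5.32e-10). Other genes higher in AsiSI were COL4A4 (2.61-fold), COL24A1 (2.45-fold), COL6A3 (2.19-fold), COL8A1 and COL28A1 (2.15-fold each), COL4A6 (1.74-fold), COL12A1 (1.72-fold), COL5A2 (1.602-fold) and COL1A1 (1.51-fold), and these calls held without any 1 library. COL26A1 was 4.63-fold lower in AsiSI siNC (SE 0.287, edgeR adjusted p = 2.59e-06), and COL9A2 2.86-fold, COL18A1 2.82-fold, COL7A1 2.22-fold, COL6A1 1.83-fold, COL6A2 1.42-fold and COL4A5 1.41-fold lower. So COL6A3 was higher and its partner chains COL6A1 and COL6A2 were lower in AsiSI. The call of COL5A1 (log2 -0.42, edgeR adjusted p = 0.00365) was lost without Flp-In siNC replicate 2 (0.160). Calls of 5 higher genes were lost as well. COL11A1 (log2 0.53, edgeR adjusted p = 0.0117) lost it without AsiSI siNC replicate 1 (0.22, 0.390) or Flp-In siNC replicate 2 (0.0753), and had 0.82 without AsiSI siNC replicate 2. COL11A2 (0.92, edgeR adjusted p = 0.0162) lost it without AsiSI siNC replicate 1 (0.0512), AsiSI siNC replicate 2 (0.0503) or Flp-In siNC replicate 1 (0.157). COL15A1 (1.07, edgeR adjusted p = 0.00537) lost it without AsiSI siNC replicate 2 (0.117) or Flp-In siNC replicate 2 (0.0772), and COL19A1 (0.48, adjusted p = 0.0177) without AsiSI siNC replicate 1 (0.0660) or Flp-In siNC replicate 1 (0.174). COL22A1 (0.30, edgeR adjusted p = 0.0340) lost it without AsiSI siNC replicate 2 (0.145), Flp-In siNC replicate 1 (0.176) or Flp-In siNC replicate 2 (0.0708), and with no filter (0.0507). COL14A1 (log2 -0.64, edgeR adjusted p = 0.0591) was called with no filter (0.0329) or without 1 of 3 libraries (AsiSI siMePCE replicate 1, 0.0390, AsiSI siMePCE replicate 2, 0.0417, or Flp-In siNC replicate 1, 0.0484). COL4A1 (0.21, edgeR adjusted p = 0.0863) was called with the filter of 1 CPM (0.0354) and in a fit of the 4 siNC libraries alone (0.0414).

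Collagen genes often lie in pairs, and 7 pairs were within 100 kb of each other. Head to head, RefSeq lists 126 bases between the starts of COL4A1 and COL4A2, 418 between COL4A4 and COL4A3, and 379 between COL4A6 and COL4A5, where COL4A6 has another start 1415 bases away. The first pair had nearly equal log2 fold changes, -0.01 and -0.02 in AsiSI and -0.23 and -0.31 in Flp-In. COL4A6 and COL4A5 did not, with -0.87 and 0.07 in AsiSI and -0.75 and -0.35 in Flp-In. COL3A1 and COL5A2 lie tail to tail 19151 bases apart and had 0.71 and -1.08 in AsiSI and -1.93 and -1.63 in Flp-In. On 1 strand, COL6A1 and COL6A2 are 93061 bases apart and both fell in both lines, and COL6A5 and COL6A6 are 32330 bases apart and both rose in both lines. COL19A1 and COL9A1 lie tail to tail 3571 bases apart. Differences within pairs were not tested.

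Genes that modify and fold collagen chains fell more often than they rose, as did coding genes as a whole (17.0% rose and 35.1% fell in AsiSI, 20.6% rose and 34.3% fell in Flp-In). Of 15 hydroxylases, glycosyltransferases and their partners, 1 rose and 10 fell (66.7%) in AsiSI and 3 rose and 11 fell (73.3%) in Flp-In. Their median log2 fold change was -0.52 in AsiSI and -0.56 in Flp-In. COLGALT1, which adds galactose to hydroxylysine, was at 31.9 ± 0.773 CPM in AsiSI siMePCE against 77.8 ± 3.06 in AsiSI siNC (log2 -1.28, SE 0.0902, edgeR adjusted p = 1.87e-10), and at 49.1 ± 0.114 in Flp-In siMePCE against 91.1 ± 0.871 in Flp-In siNC (log2 -0.89, SE 0.0886, adjusted p = 3.52e-08; SD, n = 2). On the log2 scale PLOD1, a lysyl hydroxylase, fell by 1.08 in AsiSI and 1.32 in Flp-In, and P3H1, a prolyl 3-hydroxylase, fell by 0.84 in AsiSI and 1.14 in Flp-In. P3H4, a partner protein of the hydroxylases, fell by 1.496 in AsiSI and 1.42 in Flp-In. Of 21 chaperones and secretion factors, 5 rose and 11 fell (52.4%) in AsiSI and 5 rose and 10 fell (47.6%) in Flp-In, with median log2 fold changes of -0.22 in AsiSI and -0.21 in Flp-In. FKBP10, a chaperone of type I procollagen, was at 24.7 ± 3.35 CPM in AsiSI siMePCE against 76.4 ± 3.25 in AsiSI siNC, and at 22.0 ± 3.03 in Flp-In siMePCE against 63.7 ± 2.52 in Flp-In siNC (SD, n = 2). FKBP10 fell by 1.63 in AsiSI (SE 0.113, edgeR adjusted p = 1.63e-10) and by 1.53 in Flp-In (SE 0.113, adjusted p = 3.91e-10). PREB, the exchange factor that loads COPII coats, fell by 1.63 in AsiSI and 1.62 in Flp-In, and SEC16A, which marks the exit sites, fell by 0.78 in AsiSI and 0.46 in Flp-In. SEC24D, a COPII cargo adaptor needed for procollagen export, rose by 0.82 in AsiSI and 0.58 in Flp-In.

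Outside the cell, 1 of 10 procollagen proteinases and enhancers rose and 3 fell in each line, with medians of -0.20 in AsiSI and 0.09 in Flp-In. The 4 called of 10 were a smaller share than that of coding genes called (52.1% in AsiSI, 54.8% in Flp-In). PCOLCE, the enhancer of C-propeptide removal, fell by 1.504 in AsiSI and 1.40 in Flp-In. Its counts in AsiSI were few, 18 and 10 in siMePCE and 52 and 38 in siNC. Over the 8 libraries an overlapping gene had 0.835 times the mean count of PCOLCE. TLL2, a tolloid-like proteinase, rose by 0.79 in AsiSI (edgeR adjusted p = 0.00137) and 0.71 in Flp-In (adjusted p = 0.00302, and 0.0764 without Flp-In siNC replicate 1). TLL1, its relative, fell by 0.67 in Flp-In (edgeR adjusted p = 0.00942), lost without Flp-In siMePCE replicate 1 (0.0749) or Flp-In siNC replicate 1 (0.0664). BMP1, the main C-proteinase, fell by 0.31 in AsiSI (edgeR adjusted p = 0.0407) and by 0.39 in Flp-In (adjusted p = 0.00923). The AsiSI call of BMP1 was lost without AsiSI siMePCE replicate 2 (edgeR adjusted p = 0.242), either AsiSI siNC replicate (0.136 and 0.0661) or either Flp-In siNC replicate (0.0598 and 0.0597), and with DESeq2 size factors (0.0569), the filter of 1 CPM (0.0760), the 4 AsiSI libraries alone (0.102) and DESeq2 (0.0530). Its Flp-In call was lost without Flp-In siMePCE replicate 2 (edgeR adjusted p = 0.0784) or Flp-In siNC replicate 1 (0.0562). In AsiSI 2 genes of this list were called without AsiSI siMePCE replicate 2 or without AsiSI siNC replicate 1, and 1 in Flp-In when its siNC replicate 1 was left out. Of 5 lysyl oxidases, 4 fell in AsiSI, and 1 rose and 3 fell in Flp-In, with medians of -0.81 in AsiSI and -0.91 in Flp-In. That is 80.0% called in each line, over 5 genes. LOXL1 fell by 1.47 in both lines, LOXL3 fell by 0.88 in AsiSI and 1.08 in Flp-In, and LOXL4 fell by 0.81 in AsiSI and 0.91 in Flp-In. LOX rose by 0.41 in Flp-In (edgeR adjusted p = 0.00369), lost without Flp-In siMePCE replicate 1 (0.0505) or Flp-In siNC replicate 2 (0.0634). In AsiSI LOX had a log2 fold change of 0.23 (edgeR adjusted p = 0.0925), called without AsiSI siNC replicate 1 (0.0490) and with the filter of 1 CPM (0.0149). Overlapping genes had 1.33, 1.22 and 4.71 times the counts of LOXL1, LOXL3 and LOX, so these values may hold reads of their neighbours.

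Of 12 collagen receptors, 5 rose and 3 fell in AsiSI and 3 rose and 5 fell in Flp-In, with medians of 0.24 in AsiSI and 0.02 in Flp-In. In each line 66.7% of the receptors were called, beside 52.1% of coding genes in AsiSI and 54.8% in Flp-In. The integrin chains ITGA2 and ITGA1 rose, ITGA2 to 178 ± 17.3 CPM in AsiSI siMePCE against 129 ± 9.004 in AsiSI siNC, and to 214 ± 12.5 in Flp-In siMePCE against 125 ± 6.64 in Flp-In siNC (SD, n = 2). DDR1, a receptor tyrosine kinase that binds collagen, fell by 0.69 in AsiSI and by 1.01 in Flp-In, and ADGRG1, an adhesion receptor for type III collagen, fell by 2.13 in AsiSI and 2.21 in Flp-In. Overlapping genes had 0.667 and 0.517 times the counts of ITGA1 and ADGRG1. Of 16 fibril-associated matrix proteins tested, 3 rose and 8 fell in AsiSI and 2 rose and 8 fell in Flp-In, with medians of -0.49 in AsiSI and -0.56 in Flp-In. The 8 that fell of 16 stand beside 35.1% of coding genes in AsiSI and 34.3% in Flp-In. FN1, fibronectin, on which collagen fibrils are laid, was at 136 ± 24.0 CPM in AsiSI siMePCE against 341 ± 24.4 in AsiSI siNC, and at 50.1 ± 1.63 in Flp-In siMePCE against 123 ± 3.93 in Flp-In siNC (SD, n = 2). It fell by 1.32 in AsiSI (SE 0.0988, edgeR adjusted p = 4.86e-10) and by 1.29 in Flp-In (SE 0.1004, adjusted p = 8.10e-10). TGFBI, which binds collagens and integrins, fell by 0.77 in AsiSI and 1.21 in Flp-In, and FBN1, fibrillin of the microfibrils, fell by 0.63 in AsiSI and 1.34 in Flp-In. For FBN1 the lines differed by 0.71 (SE 0.176, edgeR adjusted p = 0.0205), and leaving out each Flp-In library in turn ended that call (0.0550 to 0.0918). LUM, a small proteoglycan that spaces fibrils, rose to 41.6 ± 9.85 CPM in AsiSI siMePCE against 6.91 ± 2.25 in AsiSI siNC, and to 4.89 ± 0.365 in Flp-In siMePCE against 1.56 ± 0.372 in Flp-In siNC (SD, n = 2).

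Of 23 regulators of collagen transcription and mRNA, 6 rose and 9 fell in AsiSI and 5 rose and 8 fell in Flp-In, with medians of -0.17 in AsiSI and -0.01 in Flp-In. The shares of this list that fell (39.1% in AsiSI, 34.8% in Flp-In) were near those of coding genes (35.1% and 34.3%). In the TGF-β pathway, which raises collagen transcription in many cells, the ligand TGFB2 was at 52.0 ± 0.784 CPM in AsiSI siMePCE against 132 ± 15.2 in AsiSI siNC, and at 55.0 ± 9.29 in Flp-In siMePCE against 104 ± 1.33 in Flp-In siNC (SD, n = 2). TGFB2 fell by 1.34 in AsiSI (SE 0.106, edgeR adjusted p = 1.05e-09) and by 0.92 in Flp-In (SE 0.105, adjusted p = 2.63e-07). SMAD3, the signal carrier of the pathway, fell by 0.96 in AsiSI and 0.57 in Flp-In, and SOX9, the activator of cartilage collagen genes, fell by 1.01 in AsiSI and 0.93 in Flp-In, with an overlapping gene at 1.12 times its counts. TWIST1, a mesenchymal transcription factor, rose to 8.67 ± 0.989 CPM in AsiSI siMePCE against 2.33 ± 0.0664 in AsiSI siNC, and to 1.46 ± 0.0806 in Flp-In siMePCE against 0.639 ± 0.112 in Flp-In siNC (SD, n = 2).

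**Figure D4:**
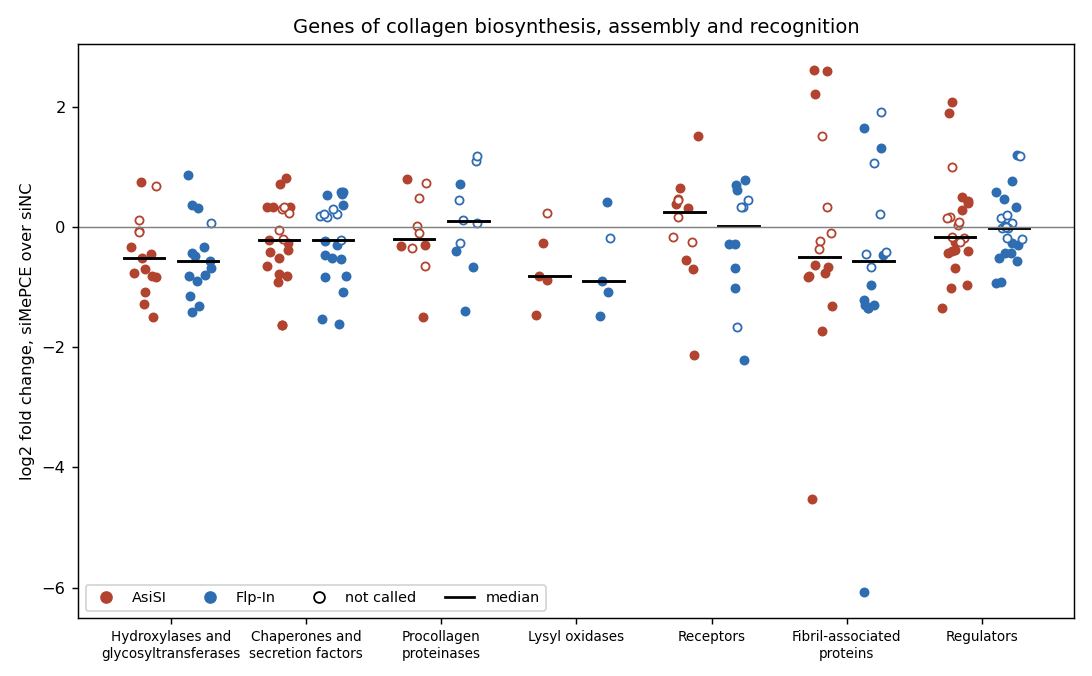
Log2 fold changes of siMePCE over siNC (y axis) for the genes tested in each of 7 lists (x axis), AsiSI in red left of Flp-In in blue, with filled points for called genes and black lines for medians. Medians of the hydroxylase list lie at -0.52 in AsiSI and -0.56 in Flp-In, and the lowest point in each line is BGN, which had 2 and 0 counts in AsiSI siMePCE and 0 in both Flp-In siMePCE libraries, so its fitted value is no bound.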

How the data were processed

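Total RNA was sequenced in 8 libraries of U2OS derivatives. Ribosomal RNA was depleted and a directional library kit used, per the labels' protocols. Tools listed in the submitters' processing notes are STAR, featureCounts, Trim Galore, SAMtools and FastQC, without versions, and the build is hg19. The authors deposited raw counts per gene, and in all 80311 rows the length given is that of the whole gene, introns included. The strand setting is not given in the sources used here, and reads of overlapping genes cannot be told apart. Some sparse genes, such as COL1A2, COL2A1 and PCOLCE, had even counts in all 8 libraries, as if both reads of a pair were counted. Whether they were is not given, and counts may thus exceed the RNA fragments behind them.

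Symbols were matched by identifier and gene types came from GENCODE 29. Genes kept by edgeR's filterByExpr (43321) were given TMM factors, then all 8 libraries entered a single model with a mean per group (edgeR 4.0.16, robust quasi-likelihood test; R 4.3.3). Adjusted p under 0.05 over all genes tested was called. Each SE is the absolute log2 fold change over the root of F. The fitting code was also run on simulated counts with few changed genes, which does not give the error rate in these data. Replicate pairs differed beyond the sampling noise of independent counts (chi-square per degree of freedom 4.51 to 11.3), so none was a copy. The common biological coefficient of variation was 0.121. The overlap ratio is another gene's mean count over the collagen gene's.

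The 44 collagen genes and the lists were chosen with earlier results of these data known. Named were called collagen genes with at least 20 mean counts, the 5 highest per kb, COL3A1, MEPCE and up to 4 genes per list by smallest adjusted p. Each of the 2 marker lists at first held 1 more gene, left out and not reported here. COL2A1, COL1A2, COL9A3, COL9A1, COL27A1 and BGN were named with their values known. Settings tried besides were DESeq2 size factors, DESeq2 1.42.0, removal of mitochondrial, 7SK, 7SL and ribosomal RNA genes (1455 rows), no filter, a filter of 1 CPM in 2 libraries, a replicate block, the 4 libraries compared alone, members without overlapping genes, and leaving out each library.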

Additional observations from a re-analysis of the deposited data

Results flagged for a closer look

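Of the genes named here, 10 were flagged for a difference of the siMePCE effect between AsiSI and Flp-In. The test of the difference in edgeR called 9 of them, with log2 differences (AsiSI minus Flp-In) of 1.46 for COL5A1, 1.38 for COL11A1, 1.37 for COL7A1, 1.02 for COL1A1, 0.92 for COL21A1, 0.89 for COL8A1, 0.80 for COL6A3, 0.71 for FBN1 and 0.50 for COL6A2. COL3A1 had a difference of 2.64, given with no test because it chose the gene: both AsiSI siMePCE libraries were above their controls and both Flp-In siMePCE libraries below theirs. COL5A1, COL1A1, COL6A3, COL6A2 and FBN1 fell in both lines and by more in Flp-In. COL21A1 rose in both and by more in AsiSI. Genes of the lists that were called in this contrast but not named are left out. They were 1 lower of 21 chaperones and secretion factors, 1 higher of 12 receptors, and 1 higher and 1 lower of 23 regulators. Of all genes tested, 4.41% were called, 2.6% higher and 1.81% lower. These differences cannot be told apart from the 4-OHT that only AsiSI is stated to have received.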

How the results depend on the processing

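No called result changed direction under an alternative. Counts within 1.5 times of those reported numbered 331, and 19 moved further. Among single genes, 3773 values were counted as unchanged, 116 lost a call and 57 gained one. Unchanged means the same side of the threshold. For COL3A1 in the knockdown contrasts and their difference, given with no test, it means a move within 1 SE. The other 3 values, all for COL3A1, moved by more than 1 SE of the log2 fold change. They did so when 1 Flp-In siMePCE library was left out (to -1.71 and -2.21 in Flp-In and to 2.91 for the difference). With members left out where an overlapping gene reached 0.1 of their own counts, collagen genes called lower numbered 8 in AsiSI and 12 in Flp-In. In the same restriction, genes called in AsiSI and Flp-In were 6 and 7 for the hydroxylases, 0 and 0 for the lysyl oxidases, 4 and 5 for the receptors, 5 and 6 for the fibril-associated proteins and 8 and 5 for the regulators. These counts are smaller by construction, since fewer genes are counted, and other genes overlap all 5 lysyl oxidases that far. Procollagen proteinases called in AsiSI numbered 2 with the filter of 1 CPM and 2 in the 4 AsiSI libraries alone, and the cause was not tested. Leaving out 1 library at a time gave 6 to 11 collagen genes higher in Flp-In, 5 to 9 with a higher effect in AsiSI than in Flp-In, and 2 to 4 and 1 to 4 proteinases called in AsiSI and Flp-In.

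Same-numbered libraries had correlations of deviations of 0.0415 to 0.239, not all above 0.1, so the numbers were not taken to pair samples. With the replicate number as a block, collagen genes called higher and lower were 11 and 14 in AsiSI, 12 and 21 in Flp-In, 9 and 0 for the difference, and 16 and 9 for AsiSI against Flp-In under siNC. The calls gained with the block were COL23A1 in AsiSI (edgeR adjusted p = 0.0238), COL8A2 and COL9A1 in Flp-In (0.0485 and 0.0249), COL26A1 for the difference (0.0420), and COL14A1 and COL4A1 under siNC (0.0273 and 0.0499), and no collagen call was lost. With 2 libraries a group, a missed call does not show equal levels, and genes with few counts, such as COL2A1 and COL1A2, allow little to be said.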
